A study of Mus musculus with 2 samples.

Results

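The 8 troponin genes of striated muscle were followed in RNA of mouse tibialis anterior cells that carry the label satellite cells, the stem cells of skeletal muscle. They are the rows of the deposited count table that map to Tnnc1, Tnnc2, Tnni1, Tnni2, Tnni3, Tnnt1, Tnnt2 and Tnnt3, so 8 of 16190 genes, and all 8 were found. There was 1 library of Cipc flox/flox cells, the control with floxed alleles of Cipc (CLOCK-interacting pacemaker, a repressor of the circadian pair CLOCK and BMAL1), and 1 of Cipc scko cells. By the series title, the latter carry a deletion of Cipc in satellite cells. The sample titles read Cipc+/+ and Cipc-/-, and both libraries carry the strain label C57BL/6. The Cre line, the age and number of animals, and any step of culture or differentiation are not stated in the labels. No mdx library was analysed here. With 1 library per group no p-value was possible: the values describe these 2 libraries, and the intervals hold counting error alone.

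The library of Cipc scko held 16830168 counts and the control 16145870. Cipc itself had 594 counts in Cipc scko and 1907 in the control, a log2 ratio of -1.61 (-1.74 to -1.47). The libraries also differed in sex-linked RNA, with 4 and 3898 counts of Xist, made from an inactive X chromosome, and 511 and 0 of the Y-linked gene Ddx3y, so genotype and sex cannot be told apart. The labelled cell type was checked by its markers, of which 10 of 12 were in the table. Pax7, the factor that defines satellite cells, stood at 62.2 CPM (counts scaled by TMM to library size) in Cipc scko and at 2.54 CPM in the control. Fgfr4 had 4780 counts and 0. Heyl stood at 65.0 and 4.25 CPM, Spry1 at 13.7 and 0.532, and Vcam1 at 190 and 95.4. Cd34 went the other way, with 3 and 427 counts, and Sdc4 stood at 112 and 176 CPM. Closer to equal were Myf5 at 66.2 and 61.6 CPM, Itga7 at 1358 and 1083, and Cdh15 at 530 and 414.

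Troponin is the calcium switch of the thin filament. Troponin C binds calcium, troponin I holds the actomyosin interaction off at rest, and troponin T anchors the complex to tropomyosin. Each subunit is made from separate genes for slow, fast and cardiac muscle: Tnnc1 (slow and cardiac) and Tnnc2 (fast), Tnni1 (slow), Tnni2 (fast) and Tnni3 (cardiac), Tnnt1 (slow), Tnnt2 (cardiac) and Tnnt3 (fast). Embryonic and regenerating skeletal muscle is known to express Tnnt2 and slow isoforms before the adult pattern is set. Quiescent satellite cells have no sarcomeres.

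The promoters are shown because the genes differed in the same direction between the libraries. RefSeq promoter sequences on GRCm38.p6 were matched for 6 of the 8 genes, and the first entry was used for each. The 4 genes below had the highest CPM among those 6 in the Cipc scko library. Each stretch is the longest run free of annotated exons within 250 bases before the start site, written 5′ to 3′ on the gene's strand. Capitals mark the letters CANNTG (the E-box read by MyoD-family factors), and CATTCC or its reverse complement (the MCAT element read by TEAD factors).
Tnnc1 (chr14:31208062-31208311, plus strand): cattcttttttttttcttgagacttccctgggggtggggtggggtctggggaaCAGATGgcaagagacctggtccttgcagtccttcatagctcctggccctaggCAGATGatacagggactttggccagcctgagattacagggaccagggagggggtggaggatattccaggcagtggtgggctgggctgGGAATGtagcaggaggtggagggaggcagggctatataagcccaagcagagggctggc
Tnnt2 (chr1:135836084-135836333, plus strand): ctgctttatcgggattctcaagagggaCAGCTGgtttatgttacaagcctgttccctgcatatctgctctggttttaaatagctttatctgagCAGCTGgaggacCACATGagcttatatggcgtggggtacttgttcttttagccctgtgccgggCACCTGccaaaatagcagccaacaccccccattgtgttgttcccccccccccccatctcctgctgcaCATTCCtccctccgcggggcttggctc
Tnni1 (chr1:135799171-135799401, plus strand): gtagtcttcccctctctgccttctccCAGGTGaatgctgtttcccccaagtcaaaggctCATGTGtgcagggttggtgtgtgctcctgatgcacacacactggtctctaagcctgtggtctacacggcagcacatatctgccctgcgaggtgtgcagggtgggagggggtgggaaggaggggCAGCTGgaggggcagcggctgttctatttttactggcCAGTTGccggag
Tnnt1 (chr7:4516005-4516225, minus strand): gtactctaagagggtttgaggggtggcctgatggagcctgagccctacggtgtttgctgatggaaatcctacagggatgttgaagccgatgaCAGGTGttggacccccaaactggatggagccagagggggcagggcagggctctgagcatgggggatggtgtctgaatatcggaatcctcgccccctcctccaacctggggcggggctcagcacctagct

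Over the 250 bases before the start site, CANNTG was found in 6 of 6 troponin promoters, and in 66% of 27025 promoters of the same length. CAGCTG, 1 form of CANNTG, was found in 2 of 6, those of Tnni1 and Tnnt2, against 12.8% of all. Tnnt2 holds it at -223 to -218 and -157 to -152 relative to the start site, and Tnni1 at -68 to -63. CATTCC, searched on both strands, was also found in 2 of 6 (12.6% of all). It lies at -58 to -53 in Tnnc1 and at -27 to -22 in Tnnt2. TATAAA was found in the Tnnt1 promoter alone, at -30 to -25, against 13% of all promoters. The consensus of MEF2 and the CArG box of SRF matched none of the 6, and matched 3.01% and 1.4% of all. These matches describe letters and not bound sites.

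Troponin RNA was a minor fraction of both libraries and far larger in Cipc scko. The 8 genes together took 82274 of 16830168 counts in Cipc scko, or 0.489% (95% Clopper-Pearson interval 0.486 to 0.492%). In the control they took 1333 of 16145870, or 0.00826% (0.00782 to 0.00871%). After scaling to CPM, the sum was 65.0-fold higher in Cipc scko, a log2 ratio of 6.02 (5.95 to 6.10). In bulk RNA, more cells of a type that makes troponin and more troponin RNA per cell cannot be told apart.

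All 8 genes passed the filter on low counts, which asks for 1 CPM in either library and 20 counts in sum. All 8 were called higher in Cipc scko, which means a difference of at least 2-fold with an interval that excludes equality. Of the 12874 genes past the filter 2732, or 21.2%, were called higher, and 15.9% were called lower. The members' log2 ratios ran from 3.57 to 7.48 with a median of 6.30, beside a median of 0.01 over all genes past the filter. A ratio as high as that of Tnnc1 was reached by 2.16% of those genes, and one as high as that of Tnni3 by 7.61%.

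**Figure D1:**
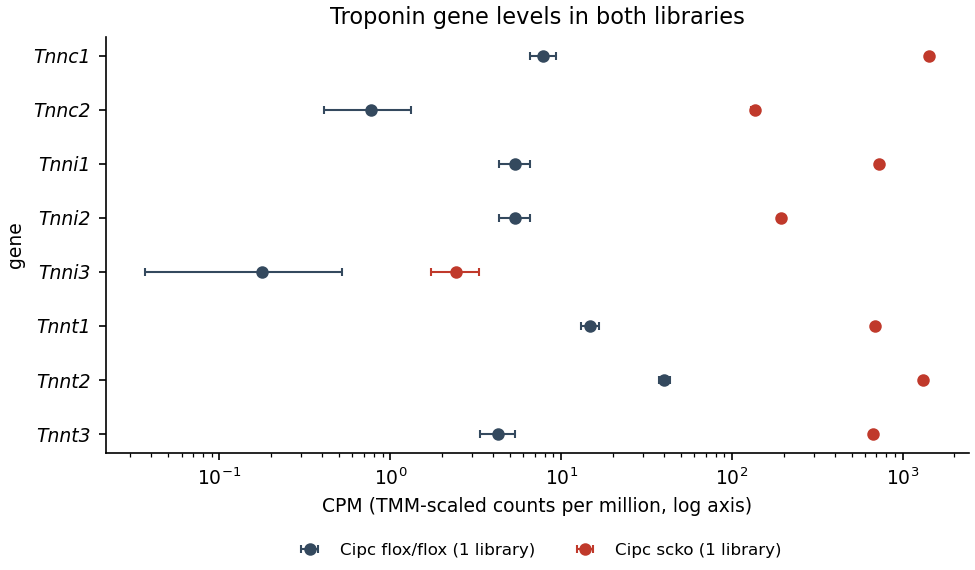
Level of each troponin gene in CPM (TMM-scaled, log axis) in the Cipc flox/flox and Cipc scko libraries, with exact 95% Poisson intervals of the counts. Every Cipc scko point lies to the right of the Cipc flox/flox point of its gene, from 2.43 against 0.177 CPM for Tnni3 to 1412 against 7.86 CPM for Tnnc1.

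Troponin C, the calcium sensor, showed the highest ratios. Tnnc1 (ENSMUSG00000091898, GRCm38 chromosome 14, 31208312 to 31211729, plus strand) had 22665 counts in Cipc scko and 133 in the control, or 1412 and 7.86 CPM. That is a 179.7-fold difference (151.5 to 214.7), and in Cipc scko only 0.505% of genes past the filter had a CPM as high. Tnnc2 (ENSMUSG00000017300, chromosome 2, 164777161 to 164779967, minus strand) had 2172 and 13 counts, or 135 and 0.768 CPM. Its ratio of 176-fold carries a wide interval, 103 to 331, set by the 13 counts of the control. The slow and cardiac gene and the fast gene of this subunit thus differed between the libraries by nearly equal factors. Tnnc2 overlaps Ube2c on the opposite strand, and their transcripts share a stretch of at least 50 bases. Ube2c had 1336 counts in Cipc scko and 3107 in the control, the opposite direction. Tnnc1 lies inside Nisch on the opposite strand, which had 6930 and 5262 counts. Whether the counting used strand is not given in the sources used here, so reads of these overlapping pairs may not have been kept apart.

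Troponin I, the inhibitory subunit, split by isoform. Tnni1, the slow gene (ENSMUSG00000026418, chromosome 1, 135779434 to 135810989, plus strand), and Tnni2, the fast gene (ENSMUSG00000031097, chromosome 7, 142441808 to 142444410, plus strand), both had 91 counts in the control, or 5.38 CPM. In Cipc scko Tnni1 had 11667 counts (727 CPM) and Tnni2 had 3106 (193 CPM). From equal counts in the control, the slow gene was thus 135-fold higher (110.0 to 168) and the fast gene 36.0-fold higher (29.2 to 44.8), and these intervals do not overlap. Tnni3, the cardiac gene (ENSMUSG00000035458, chromosome 7, 4518305 to 4524229, minus strand), had 39 counts in Cipc scko and 3 in the control, or 2.43 and 0.177 CPM. Its ratio of 13.7-fold has an interval of 4.36 to 69.3, and 88.4% of genes past the filter had a CPM as high in Cipc scko. Tnni3 is the member whose call depends on the settings: it drops out with a filter of 5 CPM, and on the scale of log2(FPKM + 1) its difference was 0.72, under the 2-fold limit. Tnni3 overlaps Dnaaf3, an axonemal dynein assembly gene on the same strand, with 86 and 38 counts.

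Troponin T, the tropomyosin-binding subunit, held the most troponin counts in both libraries. Tnnt2, the cardiac gene (ENSMUSG00000026414, chromosome 1, 135836354 to 135852260, plus strand), had 20909 counts in Cipc scko and 680 in the control, or 1302 and 40.2 CPM. It was the most counted troponin gene of the control and had a ratio of 32.4-fold (30.0 to 35.0). Tnnt1, the slow gene (ENSMUSG00000064179, chromosome 7, 4504570 to 4516382, minus strand), had 10994 and 250 counts, or 685 and 14.8 CPM, and a ratio of 46.4-fold (40.9 to 52.8). Tnnt3, the fast gene (ENSMUSG00000061723, chromosome 7, 142498836 to 142516009, plus strand), had 10722 and 72 counts, or 668 and 4.25 CPM. Its ratio of 157-fold (125 to 201) was the highest of the subunit. Tnnt1 and Tnnt3 were thus close in counts in Cipc scko but not in the control, where Tnnt1 had more.

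**Figure D2:**
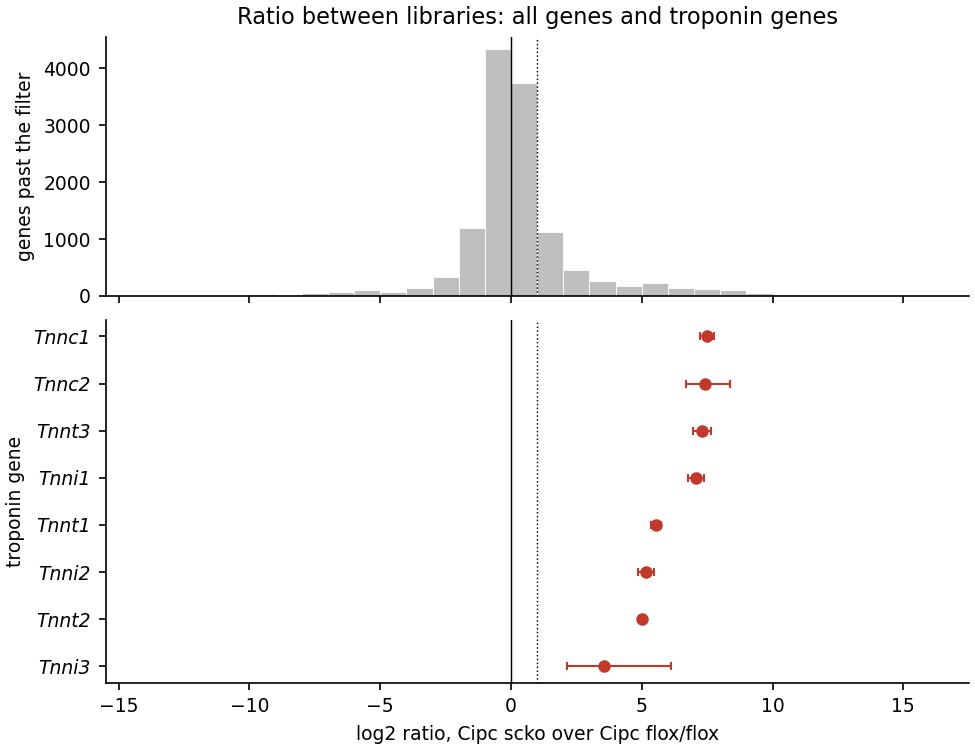
Upper panel, number of genes past the filter per unit of log2 ratio (Cipc scko over Cipc flox/flox, 12874 genes). Lower panel, the log2 ratio of each troponin gene with its 95% counting interval. The solid line marks equality and the dotted line a 2-fold difference. The members lie between 3.57 and 7.48, in the right-hand tail of all genes.

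In order of ratio the genes fell into an upper set, Tnnc1, Tnnc2, Tnnt3 and Tnni1, with log2 ratios of 7.48, 7.41, 7.28 and 7.07. The lower set was Tnnt1, Tnni2, Tnnt2 and Tnni3, with 5.53, 5.16, 5.02 and 3.57. The intervals of neighbours in this order overlap everywhere except between Tnni1 and Tnnt1. Slow and fast genes occur on either side of that gap: Tnnt3 and Tnnc2 are fast genes of the upper set, and Tnni2 is a fast gene of the lower set. Of the genes of cardiac isoforms, Tnnc1, which is also the slow gene of its subunit, came first in this order. Tnnt2 and Tnni3 came last, but the intervals of both overlap that of Tnni2.

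Levels of different genes were compared per length, in 2 ways, because the lengths matter here. The deposited FPKM (counts scaled by gene length and depth) use, for most genes, a length that adds up all annotated exons, overlapping ones included. For the troponin genes the length used is 1.14 (Tnnc2) to 7.29 (Tnnt2) times the longest CCDS transcript, the curated coding model. FPKM therefore place Tnnt2 low, and CPM per kilobase of the CCDS transcript are given beside them.

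By FPKM, Tnnc1 was the most abundant troponin RNA in Cipc scko at 901, followed by Tnnt3 at 232, Tnnt1 at 185, Tnnc2 at 161, Tnni1 at 161, Tnnt2 at 142, Tnni2 at 64.2 and Tnni3 at 0.739. The counting intervals of Tnnc2 and Tnni1 overlap, and those of the other neighbours in this order do not. By CPM per kilobase of the CCDS transcript, Tnnc1 was again first at 1958, but Tnnt2 was second at 1085. Tnnt1, Tnni1 and Tnnt3 followed at 647, 632 and 619, where neighbours overlap, before Tnni2 at 252, Tnnc2 at 193 and Tnni3 at 2.66. Tnnc1 at the top and Tnni3 at the bottom of the Cipc scko library held on both scales.

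In the control the FPKM were 5.51 for Tnnc1, 4.81 for Tnnt2, 4.38 for Tnnt1, 1.96 for Tnni2, 1.62 for Tnnt3, 1.31 for Tnni1, 1.01 for Tnnc2 and 0.0593 for Tnni3. Neighbours in this order overlap except Tnnt1 with Tnni2 and Tnnc2 with Tnni3. Per kilobase of the CCDS transcript Tnnt2 led at 33.5 CPM, above Tnnt1 at 13.9 and Tnnc1 at 10.9. Tnni2 at 7.0, Tnni1 at 4.68, Tnnt3 at 3.94, Tnnc2 at 1.10 and Tnni3 at 0.194 came after them. In this order the intervals of Tnnt1 and Tnnc1 overlap, as do those of Tnni2 with Tnni1 and of Tnni1 with Tnnt3. Which gene led the control library thus depends on the length used.

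The make-up of troponin C hardly differed between the libraries. Tnnc1 gave 84.8% of the summed FPKM of the subunit in Cipc scko and 84.6% in the control. By counts it gave 91.3% (90.9 to 91.6%) and 91.1% (85.3 to 95.2%). The FPKM ratio of Tnnc1 to Tnnc2 was 5.59 and 5.48, a change of 1.02 times between libraries (95% counting interval 0.528 to 1.81). The interval allows a change in either direction.

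Troponin I was weighted toward the slow isoform in Cipc scko. In the control Tnni1 and Tnni2 had equal counts. Per length Tnni1 was the lower one there, at 0.666 times Tnni2 by FPKM and 0.668 times per kilobase of the CCDS transcript. Per union of exons it was 0.416 times Tnni2. By FPKM and per CCDS transcript the separate counting intervals of these levels overlap, which does not show that the levels are equal. Tnni1 gave 71.2% of the summed FPKM in Cipc scko and 39.3% in the control. Tnni2 gave 28.5% and 58.9%, and Tnni3 0.327% and 1.78%. The FPKM ratio of Tnni1 to Tnni2 was 2.50 in Cipc scko and 0.666 in the control, so it was 3.76 times as high in Cipc scko (2.77 to 5.09). Such a change between libraries does not depend on gene length, since a length is the same in both. By counts the share of Tnni1 was 78.8% (78.1 to 79.4%) and 49.2% (41.8 to 56.6%), and those intervals do not overlap. The share of Tnni3 by counts was 0.263% (0.187 to 0.360%) and 1.62% (0.336 to 4.67%), and these overlap.

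Troponin T differed in the other direction along the slow to fast axis. Tnnt3, the fast isoform, gave 41.5% of the summed FPKM in Cipc scko and 15.02% in the control. Tnnt1 gave 33.0% and 40.5%, and Tnnt2 25.4% and 44.5%. The FPKM ratio of Tnnt1 to Tnnt3 was 0.795 in Cipc scko and 2.69 in the control, 0.295 times as high in Cipc scko (0.224 to 0.386). Put as the inverse, the fast isoform gained 3.39 times on the slow one. Per kilobase of the CCDS transcript Tnnt2 was the largest share in both libraries, 46.2% in Cipc scko and 65.2% in the control. On that scale Tnnt1 gave 27.5% and 27.2%, and Tnnt3 26.3% and 7.67%. By counts the share of Tnnt2 was 49.1% (48.6 to 49.5%) against 67.9% (64.9 to 70.7%), and that of Tnnt3 25.2% against 7.19% (5.66 to 8.96%). The slow to fast balance therefore differed between libraries toward slow for troponin I, toward fast for troponin T, and by less than counting error for troponin C.

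**Figure D3:**
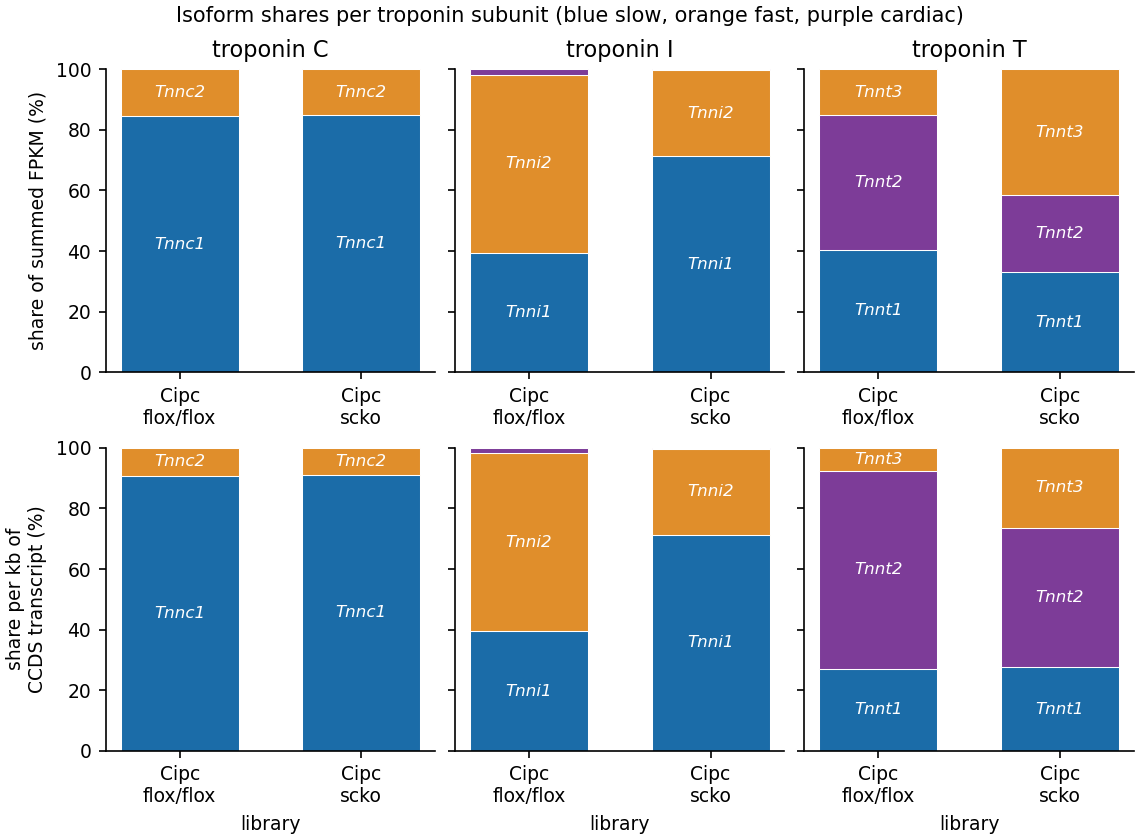
Share of each gene in the summed level of its subunit (percent, y axis) in the Cipc flox/flox and Cipc scko libraries, by FPKM in the upper row and by CPM per kilobase of the longest CCDS transcript in the lower row. Tnnc1 gives 84.6% and 84.8% of FPKM, Tnni1 goes from 39.3% to 71.2%, and the height of the Tnnt2 block differs between the rows, 44.5% against 65.2% in Cipc flox/flox.

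Summed by subunit, troponin C showed the highest ratio between libraries and troponin T the lowest. The summed FPKM were 1063 in Cipc scko and 6.52 in the control for troponin C, 226 and 3.33 for troponin I, and 559 and 10.8 for troponin T. The ratios were 163, 67.8 and 51.7. In CPM the log2 ratios of the sums were 7.48 (7.25 to 7.73), 6.40 (6.19 to 6.62) and 5.49 (5.40 to 5.58), and these intervals do not overlap. The 3 subunits stand in equal numbers in the thin filament, but their RNA levels were unequal. Troponin C, I and T gave 57.5%, 12.2% and 30.2% of troponin FPKM in Cipc scko, and 31.6%, 16.1% and 52.3% in the control. Per kilobase of the CCDS transcript the parts were 39.9%, 16.5% and 43.6%, and 15.9%, 15.8% and 68.3%. Troponin C was thus a larger part of troponin RNA in Cipc scko on both scales.

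Members of the same subunit shared only short exact stretches of sequence with each other. Within a subunit the coding transcripts were 73.3 to 76.8% identical over the stretch that aligned, and the longest exact stretch shared was 14 to 22 bases. No other gene of the table was at least 95% identical over 80% of a troponin transcript.

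The rest of the thin filament was higher in Cipc scko along with the troponin genes, but with a lower median. Of 14 other thin filament genes past the filter, 12 were called higher and none lower, with a median log2 ratio of 4.22 (4.07 when a gene at 0 takes its bound). Over all genes past the filter the shares were 21.2% higher and 15.9% lower, and they stand beside each list below too. Acta1, skeletal muscle actin, stood at 10868 CPM in Cipc scko and 8.80 in the control. Actc1, cardiac actin, which is also made in developing skeletal muscle, stood at 2114 and 0.177 CPM, the latter from 3 counts. The tropomyosins Tpm2 and Tpm1, the partners of troponin T, had smaller ratios: 1441 and 196 CPM, and 1282 and 372 CPM. Tpm3 was not called, at 311 and 432 CPM. Nebl, with 1 and 2 counts, was too low to compare.

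Most genes past the filter in both fibre programmes were higher, as both isoform sets of troponin were. Of 8 slow fibre genes past the filter 6 were called higher and none lower, with a median of 6.69 (5.49 with bounds). The 2 not called were Atp2a2, at 875 CPM in Cipc scko and 595 in the control, and Tpm3, at 311 and 432. Atp2a2 falls outside the rule for naming genes. Myh7, slow myosin heavy chain, had 27995 counts in Cipc scko and 0 in the control. Set against a floor of 3 counts per library, that is 9838-fold higher. Casq2, a calcium buffer of slow and cardiac muscle, had 2879 counts in Cipc scko and 22 in the control, Myoz2 744 and 4, and Cd36 113 and 1. Of 10 fast fibre genes past the filter all 10 were called higher, with a median of 5.98 (5.15 with bounds). Mylpf, the fast regulatory light chain, stood at 2248 and 18.1 CPM, Myl1 at 633 and 26.9, and Actn3, a Z-disc protein of fast fibres, at 695 and 224.

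The cardiac list did not follow the cardiac troponins as a whole. Of its 13 genes 6 were in the table, and 3 were called higher and 3 lower, with a median of 0.56 (0.61 with bounds) that turns negative on the FPKM scale (-0.56 with a pseudocount of 0.1). Actc1, Myl4 (2508 and 1.54 CPM) and Myh6 (71 and 0 counts) were higher. Actc1 and Myl4 are also known in embryonic skeletal muscle. Gata4, a cardiac transcription factor, was lower, with 0 counts in Cipc scko and 750 in the control. Nppb with 0 and 40 counts and Nkx2-5 with 0 and 34 were lower too. These last 2 fall outside the rule for naming genes and were picked with their values in view.

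**Figure D4:**
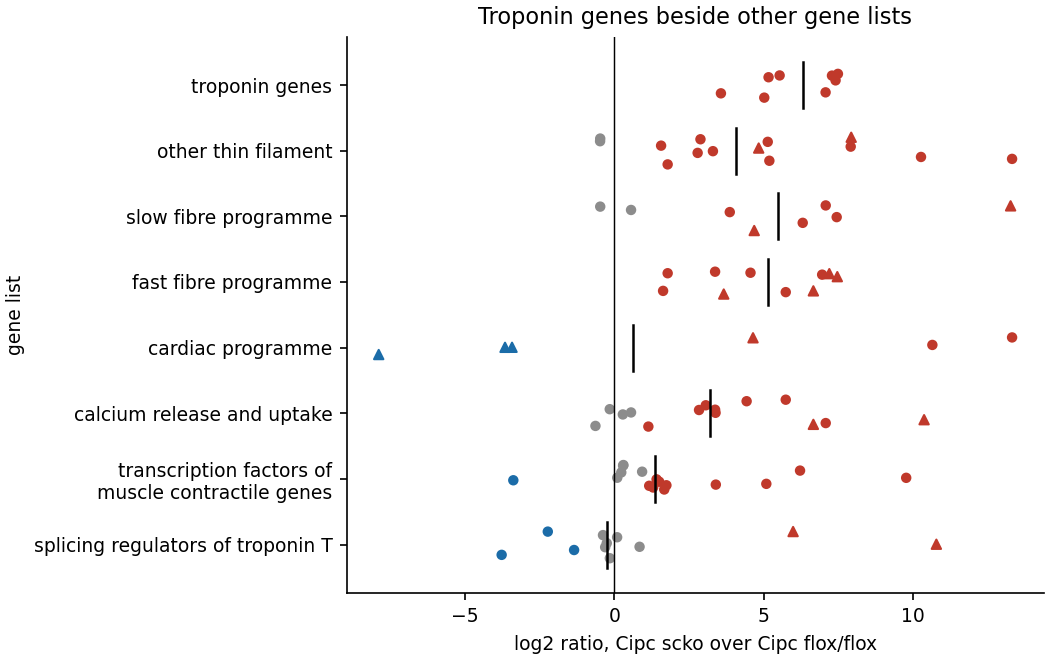
Log2 ratio (Cipc scko over Cipc flox/flox, x axis) of each gene past the filter, by list. Red points were called higher, blue lower and grey not called; triangles are bounds for genes at 0 in a library, and black bars are medians with those bounds. The median of the 8 troponin genes is 6.30, that of the slow fibre list 5.49 with bounds, and the cardiac list has genes on both sides of 0.

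The calcium machinery that drives troponin was higher in most members. Of 14 genes past the filter, 10 were called higher and none lower, with a median of 3.22. Jph2, which holds the junction of plasma and sarcoplasmic membranes, stood at 1214 and 170 CPM. Ryr1, the calcium release channel, stood at 346 and 33.0, and Atp2a1, the fast calcium pump, at 600 and 11.2. Cacna1s, the voltage sensor, had 3761 counts in Cipc scko and 0 in the control, 1322-fold higher against the floor of 3 counts. Mrln, which encodes a pump inhibitor, was not called, at 20 and 33 counts.

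Of 16 transcription factors known to act on muscle contractile genes, 10 were called higher and 1 lower, with a median of 1.35. Myog, or myogenin, which drives myoblasts to differentiate, had 44286 counts in Cipc scko and 53 in the control. Myod1 stood at 1192 and 113 CPM, Mef2d at 287 and 117, and Mef2a at 203 and 71.7. Eya1, a transcriptional cofactor, was lower, at 4.11 and 43.2 CPM. Among 11 regulators of splicing known to act on troponin T or other muscle transcripts, 2 were called higher and 3 lower, with a median of -0.26. Over all genes past the filter 21.2% were called higher and 15.9% lower, so these counts set the list little apart. Rbm24 had 5001 and 0 counts, 1758-fold higher against the floor of 3 counts. Rbfox1, likewise picked with its value in view, had 180 and 0. Ptbp1 was lower at 116 and 295 CPM, Mbnl1 at 21.7 and 102, and Mbnl3 at 0.810 and 11.5. The files hold gene totals, so inclusion of the alternative exons of Tnnt2 or Tnnt3 was not analysed here.

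Markers of other cell types also differed between the libraries. The sums given here run over every listed gene in the table, those under the filter included. Beside the counts called stand 21.2% higher and 15.9% lower over all genes past the filter. Of 9 myofibre markers past the filter 8 were called higher, with summed levels of 12432 CPM in Cipc scko, most of it Acta1, and 703 in the control, most of it Eno3 at 693. Of 10 listed 4 were at 0 in the control, namely Myh1, Myh2, Pvalb and Tcap. Of 7 smooth muscle and pericyte markers 6 were called higher and 1 lower, with sums of 14438 and 735 CPM, most of it Acta2 at 12432 and 513 CPM. Tagln stood at 1320 and 35.9 CPM, Mcam at 152 and 0.709, Pdgfrb at 266 and 83.9, Notch3 at 262 and 72.6 and Cnn1 at 6.54 and 0.177, while Cspg4, the lower one, stood at 0.436 and 29.0. Myh11, Rgs5 and Kcnj8 were not in the table. Of 6 fibro-adipogenic markers past the filter 1 was higher and 4 lower (sums over 7 genes of 1232 and 2181 CPM). Of 3 macrophage markers past it 1 was higher and 2 lower (sums over 5 genes of 6.48 and 47.5 CPM). The 2 endothelial markers past it, Kdr and Vwf, were higher (sums over 5 genes of 12.2 and 1.65 CPM), and Tek was at 0 in Cipc scko and Pecam1 in the control. Satellite cell markers summed to 2696 and 1862 CPM, with 4 higher, 1 lower and 5 not called. The part of these cell types in the troponin result was not tested.

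Of the 8 genes 6 lie in the genome as 3 pairs of a troponin I and a troponin T gene. Tnni1 and Tnnt2 lie 25.4 kb apart on chromosome 1, Tnni3 and Tnnt1 1.92 kb apart on chromosome 7, and Tnni2 and Tnnt3 54.4 kb apart on the same chromosome. In 2 of the 3 pairs the partners' log2 ratios had intervals that do not overlap. These were 7.07 (6.78 to 7.39) and 5.02 (4.91 to 5.13) for Tnni1 and Tnnt2, and 5.16 (4.87 to 5.49) and 7.28 (6.96 to 7.65) for Tnni2 and Tnnt3. For Tnni3 and Tnnt1 they were 3.57 (2.12 to 6.12) and 5.53 (5.35 to 5.72), and the interval of Tnni3 contains that of Tnnt1. In the control library as in the other, Tnnt1 was far above Tnni3 despite the short distance, with 250 against 3 counts there and 10994 against 39 in Cipc scko.

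Within 200 kb of a troponin gene 48 other genes passed the filter, of which 17 were called higher and 5 lower, beside 21.2% and 15.9% of all genes. The interval around Tnni2 and Tnnt3 held 8 of those 17, among 9 genes past the filter, with a median log2 ratio of 6.10. That median is the value of Syt8, which was at 0 in the control and whose bound was lower, at 3.54. The interval includes the imprinted genes Igf2, with 69297 counts in Cipc scko and 10 in the control, and H19, with 305903 and 3150. Igf2os, which runs antisense to Igf2 and may share its reads, had 209 and 0 counts, Nctc1 76 and 0, and Ifitm10 444 and 8. Syt8 had 33 and 0 counts, Lsp1 5015 and 1158, and Mrpl23 525 and 262. Ctsd, a lysosomal protease gene 53.8 kb upstream of Tnni2, was not called, at 23873 and 25408 counts. All genes past the filter within reach of this pair except Ctsd were thus higher.

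The other loci did not show this. Around Tnni1 and Tnnt2, 4 of 7 genes were higher and 1 lower (median 1.01). Igfn1 had 547 and 18 counts and Csrp1, a LIM protein gene, 16828 and 4862. Phlda3 had 4599 and 2405, Tmem9 2693 and 1141, and Pkp1, the lower one, 329 and 1192. Around Tnni3 and Tnnt1, Eps8l1 (78 and 0 counts) and Dnaaf3 were higher among 8 genes (median 0.23). Around Tnnc1, 3 of 11 were higher (median 0.81), namely Sema3g with 77 and 2 counts, Nt5dc2 with 3094 and 1103 and Smim4 with 94 and 44. Around Tnnc2 none of 13 was higher and 4 were lower (median -0.61): Ube2c, Ctsa with 2114 and 6968 counts, Pltp with 789 and 1794, and Zfp335os with 12 and 36. Tnnc2 was thus called higher where no gene past the filter near it was.

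**Figure D5:**
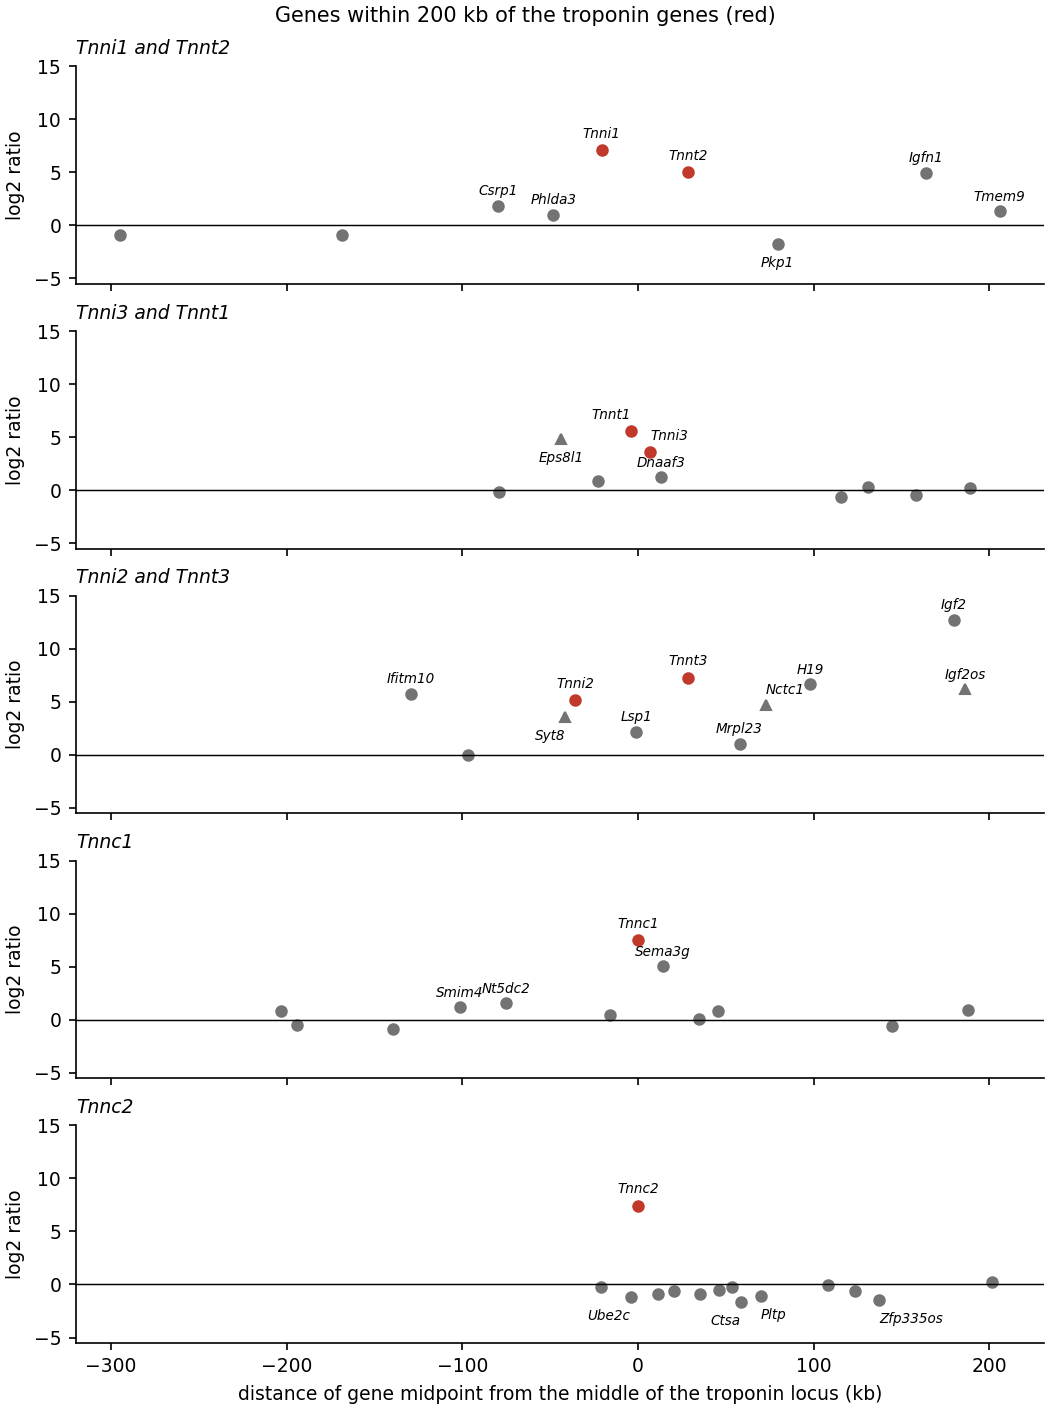
Log2 ratio (Cipc scko over Cipc flox/flox, y axis) of genes past the filter within 200 kb of the troponin genes, by distance of the gene's midpoint from the middle of the locus (kb, x axis), 1 panel per locus. Troponin genes are red, called neighbours are named, and triangles are bounds for genes at 0 in the control. Neighbours of Tnni2 and Tnnt3 are high in 8 of 9 cases and those of Tnnc2 in none of 13.

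Chromosome 7, which holds 4 of the members, also stood higher as a whole. Its 967 other genes past the filter had a median log2 ratio of 0.40, with 29.1% called higher and 8.38% lower. The medians were -0.02 on chromosome 1 (762 genes), -0.10 on chromosome 2 (1024 genes) and -0.09 on chromosome 14 (427 genes). The part of this in the ratios of Tnni2, Tnni3, Tnnt1 and Tnnt3 was not tested; the ratios themselves were 5.16, 3.57, 5.53 and 7.28.

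The genes nearest to Tnnc1 in the level of both libraries were found by the distance between values of log2(CPM + 0.5). They were Islr (1239 and 8.86 CPM, distance 0.2495), Mybph (1781 and 4.25, distance 0.880), Srl (750 and 10.3, distance 0.983), Sdc3 (822 and 13.5, distance 1.08) and Tnni1 (distance 1.08). Mybph encodes a myosin-binding protein and Srl a calcium-binding protein of the sarcoplasmic reticulum. Likeness over 2 libraries says only that the levels are close.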

How the data were processed

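Each group, Cipc flox/flox and Cipc scko, gave 1 library, made from total RNA with a VAHTS Universal V6 kit for Illumina sequencing, per the labels' protocols. GRCm38 is the build in the submitters' processing notes, which also list HISAT2 2.0.4, StringTie 1.3.0 and CASAVA with no role for any. Which tool counted, on which annotation release, with what strand setting and filters, is not given in the sources used here. The authors deposited whole-number counts per gene for both libraries in 1 table, and, per the file headers, 1 FPKM table for each library.

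The deposited FPKM carry the same reads as the counts: for 13719 genes, the scko to flox/flox ratio by FPKM was 0.9996 to 1.0002 times that by counts per total. The gene length they imply matched, within 1%, the sum of all distinct annotated exons for 70.7% of 15185 genes and the union of exons for 15.6%. The sum matched for 5 of the 8 troponin genes. Gene models and symbols were those of GENCODE vM21 (GRCm38), and promoters came from RefSeq on GRCm38.p6, matched for 6 of the 8 genes. Of 16190 gene identifiers 74 had no symbol.

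Counts were scaled with TMM (edgeR 4.0.16, R 4.3.3) and given as CPM. Log2 ratios used a prior count of 0.5 scaled to library size, and their 95% intervals are exact Clopper-Pearson intervals of the split of counts. Fold values of single genes with counts in both libraries are CPM ratios without a prior. They can therefore differ from the log2 ratios where counts are low, as for Tnni3 and Tnnc2. Intervals and floors hold counting error alone: without molecular identifiers, reads are not independent molecules. A gene at 0 was bounded against 3 counts, which is 0.187 CPM (Cipc scko) or 0.177 CPM (Cipc flox/flox). That bound is a ratio to a chosen floor, and the 95% interval can reach closer to equality. The interval of a slow to fast change is the exact conditional interval of the odds ratio of the 4 counts. Ratios were tested on simulated counts with known fold changes. These held counting error alone and were scaled by total counts, so they say nothing of variation between animals. Identity within a subunit used pairwise local alignment, and the search for other similar genes used BLAST+ 2.17.0.

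The members, lists and named genes were chosen with earlier results of these data known. The rule names every troponin gene, Cipc, the 4 most counted called genes of each list and its lowest ratio, neighbours with at least 20 counts, and the 5 protein-coding genes nearest to Tnnc1. The alternatives were other scalings, filters, prior counts, FPKM, fold limits, intervals, gene lengths and windows.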

Additional observations from a re-analysis of the deposited data

How the results depend on the processing

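No paired analysis was possible because each group has 1 library, and for the same reason no replicate could be left out. All 8 troponin genes were called higher under 9 of 11 alternatives, and 7 under the other 2, where Tnni3 was lost. None of 63 alternative values of the members' ratios changed direction, and 53 moved by less than the counting interval and 10 by more. The 53 include the values under other filters, which do not enter a ratio and so could not move it. Scaling by total counts moved the median of all genes by -0.14. The log2 ratio of the troponin sum, 6.02, was then 5.89, and it was 6.48 and 6.41 from FPKM with pseudocounts of 0.1 and 1. The direction of the cardiac list's median, 0.56, changed to -0.56 and -0.30 with those pseudocounts. Of 154 alternative counts of the lists 2 moved by over 1.5 times: the cardiac genes called lower became 1 with a filter of 5 CPM, and the transcription factors called higher became 4 with a limit of 4-fold. The neighbours called higher, 17, were 15 when scaled by totals and 13 within 100 kb.

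Shares within a subunit depend on the gene length. By raw counts the slow share in Cipc scko and Cipc flox/flox was 91.3% and 91.1% for Tnnc1, 78.8% and 49.2% for Tnni1, and 25.8% and 25.0% for Tnnt1. Per union of exons it was 88.9% for Tnnc1 in Cipc scko, 60.8% and 28.9% for Tnni1, and 34.5% and 46.0% for Tnnt1. Per longest transcript it was 91.0% and 90.9%, 60.7% and 28.7%, and 39.0% and 46.6%. Per longest CCDS transcript, a choice made after seeing the data, it was 91.0% and 90.9% for Tnnc1 and 27.5% and 27.2% for Tnnt1. Whether the Tnnt1 share was lower in Cipc scko thus depends on the length; here the lengths alone differ, so their choice is the cause. The ratio of summed troponin T, 51.7, became 40.8 by raw counts, 56.2 per union of exons and 41.6 per CCDS transcript, and that of troponin I, 67.8, became 58.5 per union and 58.2 per longest transcript. The change in the slow to fast ratio was the same under all 12 alternatives of length by construction, since a gene's length cancels between the libraries. That sameness is therefore no check of the change. With 13 and 3 control counts, Tnnc2 and Tnni3 have the widest counting intervals of the 8 ratios.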
